A study of Rattus norvegicus with 12 samples.

Results

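Trpv1 and Scn9a, 2 of the 32545 genes in the deposited tables, are described here across 12 libraries of the right trigeminal ganglion of the rat. They were chosen by their Ensembl identifiers, ENSRNOG00000019486 for Trpv1 and ENSRNOG00000006639 for Scn9a, and both identifiers were found in every library. The animals were female Sprague Dawley rats, an outbred stock, that carried a hormone capsule for 1 week, with 3 libraries in each of 4 groups. Vehicle capsules held cholesterol alone, and the other capsules held estradiol (E2), the main ovarian estrogen. A 5% capsule was labelled as the diestrus level, the low-estrogen phase of the cycle, a 20% capsule as the proestrus level, the phase of the estrogen peak, and a 40% capsule as a therapeutic level. Whether the ovaries were intact is not given in the sources used here. The series asks how the dose and timing of E2 change the response of trigeminal sensory neurons to serotonin, and the libraries allow the mRNA of these channels to be compared across the doses.

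Trpv1 encodes a cation channel of pain-sensing neurons that is opened by capsaicin, noxious heat and acid, and inflammatory signals lower its threshold. Scn9a encodes Nav1.7, a voltage-gated sodium channel of peripheral neurons that amplifies small depolarizations and so helps set the firing threshold; people who lack a working Nav1.7 do not feel pain. In the trigeminal ganglion both channels are known from sensory neurons, whose endings supply the face, teeth and meninges. In whole-ganglion RNA, fewer neurons and less mRNA per neuron cannot be told apart, and neither channel protein nor current was measured.

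The RefSeq windows just before the start of each gene are shown because estrogen receptors act on DNA, and the results below concern the mRNA of these genes under E2. Each run is the 250 bases before the annotated start, in assembly GRCr8, read 5′ to 3′ in the direction of the gene. That of Trpv1 is chr10:58349686-58349935 on the plus strand, and that of Scn9a is chr3:71701378-71701627 on the minus strand. Capitals mark a half-site of the estrogen response element, GGTCA, on either strand.
Trpv1: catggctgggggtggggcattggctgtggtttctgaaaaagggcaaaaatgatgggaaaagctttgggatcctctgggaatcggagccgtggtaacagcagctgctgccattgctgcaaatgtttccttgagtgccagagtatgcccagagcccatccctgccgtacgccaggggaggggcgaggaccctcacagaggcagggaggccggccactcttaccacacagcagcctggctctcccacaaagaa
Scn9a: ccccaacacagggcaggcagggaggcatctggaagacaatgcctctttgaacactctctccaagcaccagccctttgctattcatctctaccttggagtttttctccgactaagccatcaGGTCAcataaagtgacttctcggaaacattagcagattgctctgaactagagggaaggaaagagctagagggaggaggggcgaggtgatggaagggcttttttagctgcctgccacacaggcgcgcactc
Neither window held the full estrogen response element, a half-site followed after 3 bases by its reverse complement, which was present in 0.0239% of 33469 RefSeq windows of this length. Scn9a held 1 half-site, from 130 to 126 bases before the start, and Trpv1 held 0. Of all windows, 35.4% held at least 1 half-site. In the RefSeq table Trpv1 lies between Shpk and Trpv3 with 0 overlapping genes, and Scn9a lies between Scn1a and Scn7a, both sodium channel genes, with 1 overlapping pseudogene. The genome build behind the deposited values is not given in the sources used here, and the RefSeq table carries no Ensembl identifiers, so the symbols of these 2 genes rest on their identifiers and no other gene could be named. Markers of neurons, glia and other cells, and other nociceptor channels, were therefore not analysed here.

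Both channels were well expressed, and their values rest on many fragments. The deposited values are FPKM, which divide the fragments of a gene by the length of its model and by a depth factor of the library. The fragments behind each value were recovered from the FPKM values themselves, which gave 13281981 to 16978830 fragments per library. Trpv1, with a gene model of 3507 bases, averaged 35.9 FPKM over the 12 libraries on 1653 to 2399 fragments per library. Scn9a, with a gene model of 9302 bases, averaged 48.8 FPKM on 5372 to 8091 fragments. Per length, and over the 14781 genes with at least 1 FPKM in at least 3 libraries, Trpv1 stood above 83.1% of genes and Scn9a above 88.0%. Vehicle replicate 1 differed most from the other 11 libraries over all genes (mean root mean square difference of 0.497 on the log2(FPKM + 1) scale, against 0.427 to 0.455), and the Trpv1 differences from vehicle at 5% and 20% E2 and for the mean of the doses, with the exact tests over all libraries, are also given without it.

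Trpv1 mRNA was at its highest mean in the vehicle group and at its lowest at 5% E2. The vehicle libraries had 39.3, 36.0 and 38.3 FPKM (replicates 1, 2 and 3), a mean of 37.9 ± 1.70 (SD, n = 3). At 5% E2 the values were 33.4, 35.3 and 34.0 FPKM, a mean of 34.2 ± 1.01. All 3 libraries at 5% E2 thus lay below all 3 vehicle libraries, although the highest of them was within 1 FPKM of the lowest vehicle library. At 20% E2 the values were 34.8, 35.1 and 33.9 FPKM, a mean of 34.6 ± 0.590, again all below the vehicle libraries. At 40% E2 they were 38.1, 36.6 and 35.5 FPKM, a mean of 36.8 ± 1.34, which overlapped with vehicle and lay above every library at 5% and 20% E2. This separation was narrow: the lowest library at 40% E2 had 35.46 FPKM, and the highest at 5% E2 had 35.32 FPKM. The order of the Trpv1 means was therefore vehicle, 40%, 20% and 5% E2, in which vehicle and 40% E2 overlapped, as did 20% and 5% E2.

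**Figure D1:**
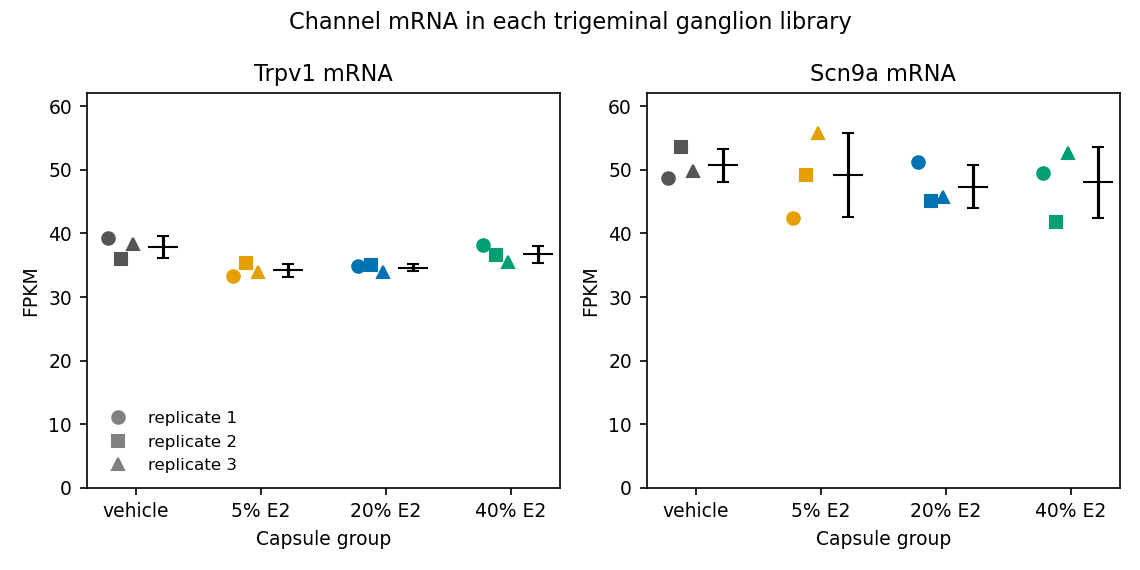
Trpv1 (left) and Scn9a (right) mRNA in FPKM (vertical axes, from 0) in each of the 12 libraries by capsule group; symbols mark the replicate number, and the bar beside each group is the mean with 1 SD (n = 3). Trpv1 at 5% and 20% E2 sits between 33.4 and 35.3 FPKM, below the vehicle libraries at 36.0 to 39.3, while the Scn9a groups overlap throughout.

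Scn9a mRNA overlapped between all 4 groups. The vehicle libraries had 48.8, 53.5 and 49.7 FPKM, a mean of 50.7 ± 2.53 (SD, n = 3). At 5% E2 the values were 42.5, 49.2 and 55.8 FPKM (49.2 ± 6.64), so that this group held the highest of the 12 libraries and, apart from 1, the lowest. At 20% E2 they were 51.2, 45.1 and 45.7 FPKM (47.3 ± 3.35). At 40% E2 they were 49.5, 41.9 and 52.6 FPKM (48.0 ± 5.54), with the lowest of all libraries in replicate 2. The order of the Scn9a means was vehicle, 5%, 40% and 20% E2, and no neighbours in that order differed beyond their spread.

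Against vehicle, neither channel passed the test at any dose (limma over all 14781 genes, Benjamini-Hochberg adjusted p under 0.05). Of all genes, 0% passed at 5% E2, 0.00677% at 20% E2 and 0% at 40% E2. On the log2(FPKM + 1) scale Trpv1 at 5% E2 differed from vehicle by −0.14 ± 0.06 (SE), with a limma adjusted p of 0.889 and with 3.48% of genes at a smaller p. The share of genes at an unadjusted p under 0.05 was 5.49%, 6.07% and 5.87% at 5%, 20% and 40% E2. At 20% E2 the Trpv1 difference was −0.13 ± 0.06 (limma adjusted p = 0.799, 6.65% of genes at a smaller p), and at 40% E2 it was −0.04 ± 0.06 (adjusted p = 0.933). For Scn9a the differences were −0.05 ± 0.11 at 5% E2, −0.10 ± 0.11 at 20% E2 and −0.08 ± 0.11 at 40% E2, with limma adjusted p of 0.951, 0.910 and 0.928. The 3 comparisons share the vehicle libraries, so their common sign is not 3 independent results.

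The separation of the Trpv1 groups was set against all genes. Trpv1 at 5% E2 was fully below vehicle, as were 4.54% of genes, and at 20% E2, as were 5.34% of genes. With 3 libraries against 3, the exact permutation test (two-sided) gave p = 0.10 for both, the smallest value that design allows. Trpv1 at 40% E2 was fully above 5% E2, as were 5.12% of genes, and fully above 20% E2, as were 4.33%. Leaving out a library cannot make separated groups overlap, so Trpv1 had to stay fully below vehicle at 5% and 20% E2 without vehicle replicate 1. Of all genes, 8.86% and 10.3% were then fully below vehicle at these doses.

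How large a change the data leave out is given by the confidence intervals, stated as a percent change of FPKM + 1. For Trpv1 the 95% interval ran from −17.1% to −0.957% at 5% E2, from −16.2% to 0.178% at 20% E2 and from −11.1% to 6.18% at 40% E2. A rise of Trpv1 above vehicle by more than 6.18%, or a fall beyond 1.21-fold, thus lay outside the 95% interval at each dose. For Scn9a the intervals were wider, from −17.8% to 13.5% at 5% E2, from −20.5% to 9.84% at 20% E2 and from −19.6% to 11.1% at 40% E2. The outermost bounds for Scn9a against vehicle were a fall of 1.26-fold and a rise of 13.5%. Widened to hold jointly for 12 intervals (2 genes in 6 pairs of groups), the bounds against vehicle were −21.6% and 12.3% for Trpv1 and −28.1% and 25.6% for Scn9a. At these levels the added 1 in FPKM + 1 matters little: with log2(FPKM + 0.1) the Trpv1 interval at 5% E2 was −17.6% to −0.883%.

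**Figure D2:**
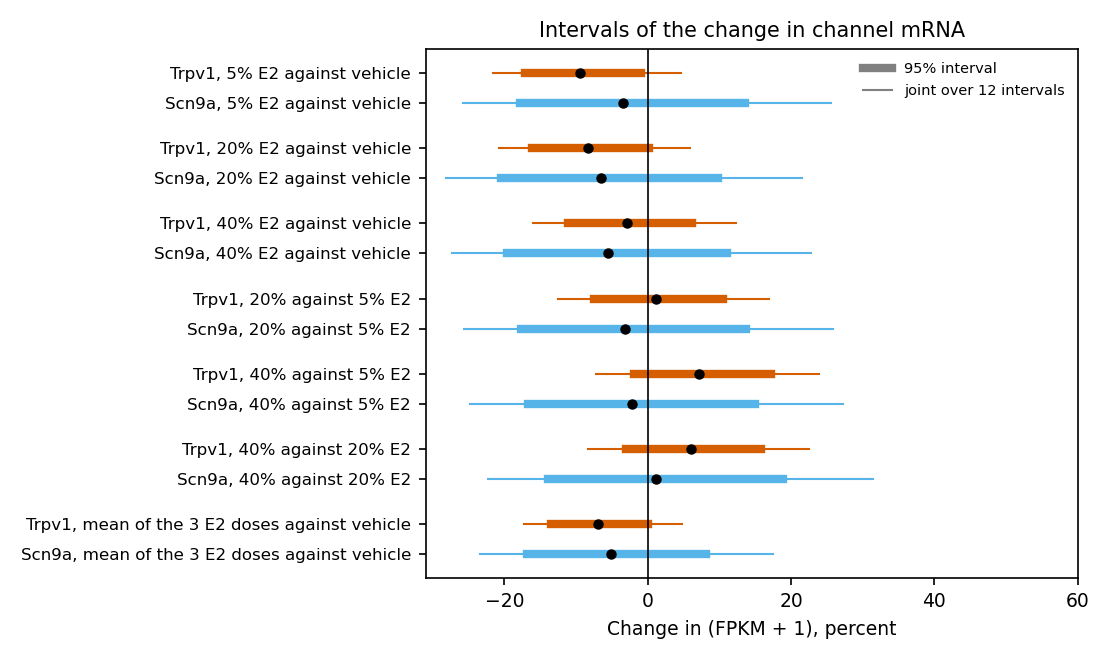
Change in FPKM + 1 in percent (horizontal axis) for Trpv1 and Scn9a in each pair of groups and for the mean of the E2 groups against vehicle. Dots are the limma estimates, thick bars the 95% intervals and thin bars the intervals widened to hold jointly over the 12 of the pairs. The thin bars of the mean use the same widening but are not among the 12. For the pairs of groups the thick bars reach 1.09-fold (Trpv1) or 1.18-fold (Scn9a) to either side of the estimate, and of those against vehicle only that of Trpv1 at 5% E2, from −17.1% to −0.957%, does not cross 0.

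Some of these bounds moved when a library was left out. Without vehicle replicate 1 the Trpv1 difference at 5% E2 was −0.12 with a 95% interval of −16.1% to 1.52%, and at 20% E2 it was −0.10 with an interval of −15.2% to 2.68%. Without vehicle replicate 2, the vehicle library lowest in Trpv1, the intervals were −19.8% to −2.57% at 5% E2 and −18.9% to −1.45% at 20% E2 (limma adjusted p = 0.556 and 0.675). Fitted on the 5% E2 and vehicle libraries alone, the Trpv1 interval at 5% E2 was −19.5% to 1.92%. The lowest bound found for Trpv1 against vehicle under any alternative was −19.8%, at 5% E2 without vehicle replicate 2, and the highest was 9.44%, at 40% E2 without 40% E2 replicate 3. For Scn9a the lowest bound was −25.1%, at 20% E2 without its replicate 1, and the highest 21.4%, at 5% E2 without its replicate 1. The adjusted limma p of the channels against single doses ranged from 0.556 to 1.000 over the alternatives.

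Between doses, Trpv1 differed most from 5% to 40% E2, by 0.10 ± 0.06 (SE) on the log2(FPKM + 1) scale (limma, adjusted p = 0.968), with a 95% interval of −1.93% to 17.2%. From 20% to 40% E2 it was 0.08 ± 0.06 (adjusted p = 1.000, −3.04% to 15.9%), and from 5% to 20% E2 it was 0.02 ± 0.06 (adjusted p = 0.991, −7.47% to 10.6%). Of all genes, 0%, 0.00677% and 0.00677% passed for 20% against 5%, 40% against 5% and 40% against 20% E2, and 4.48%, 4.51% and 2.9% had an unadjusted p under 0.05. The Scn9a intervals were −17.7% to 13.8% for 20% against 5% E2, −16.8% to 15.0% for 40% against 5% E2 and −14.0% to 18.8% for 40% against 20% E2, with limma adjusted p of 0.990 to 1.000.

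Taking the E2 groups together, 7 of the 9 E2 libraries had less Trpv1 than any vehicle library and 0 had more than the highest. These 7 include all libraries of the groups described above as fully below vehicle, so the count is not separate evidence. Such counts over the 9 E2 libraries were not made for all genes. The mean of the 3 doses differed from vehicle by a log2 change of −0.10 ± 0.05 (SE), with a 95% interval of −13.4% to 0.104% (limma adjusted p = 0.740, 7.09% of genes at a smaller p, with 0.00677% passing and 6.72% at an unadjusted p under 0.05). For this single gene the exact permutation test over 220 splits gave p = 0.0227 (two-sided, not adjusted, 1 of 6 such tests over all libraries on the channels and their ratio). The channels were chosen with earlier results of these data known, which this p does not take into account. This p was 0.127 without vehicle replicate 1 and 0.0909 without vehicle replicate 3 (exact permutation tests), and with any other library left out it ran from 0.0121 to 0.0424. With a library left out fewer splits remain, fewest without a vehicle library, so the smallest possible p is larger. For Scn9a, 4 of 9 E2 libraries lay below all vehicle libraries and 1 above. Its interval ran from −16.9% to 8.20% (limma adjusted p = 0.878), and its exact permutation p was 0.382. The Trpv1 difference was −0.08 without vehicle replicate 1, with a 95% interval of −12.6% to 2.88%, and −0.14 without vehicle replicate 2, with an interval of −16.4% to −1.29% (limma adjusted p = 1.000 and 0.516).

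Over all 4 groups, 69.9% of the squared deviation of Trpv1 among the 12 libraries lay between groups, against a median of 25.3% over all genes. A share this high was found in 1.77% of genes. For Trpv1 the exact permutation test, over each of the 15400 possible sets of 4 groups, gave p = 0.0244 (one-sided, not adjusted), while limma's F-test, which pools the spread with that of other genes, gave an adjusted p of 0.964 (9.09% of genes at a smaller p, 0% passing and 4.79% with an unadjusted p under 0.05). This exact p, too, does not take into account that the channels were chosen with earlier results known. With 1 library left out the exact permutation p ran from 0.00942, without vehicle replicate 2, to 0.0549, without vehicle replicate 3, and it was 0.0536 without vehicle replicate 1. It was under 0.05 with any of the other 10 libraries left out. For Scn9a 9.50% lay between groups (exact permutation p = 0.824, limma F-test adjusted p = 0.973). Along the dose, no linear trend passed for either channel: over the range of 0 to 40% E2 the fitted change was 0.381% for Trpv1 (95% interval −8.73% to 10.4%, limma adjusted p = 0.991) and −4.87% for Scn9a (−16.9% to 8.96%, adjusted p = 0.924), with 0% of genes passing and 5.96% at an unadjusted p under 0.05.

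Trpv1 had the smaller spread among libraries of 1 group although it had fewer fragments, and so the narrower intervals. Trpv1 had a within-group coefficient of variation (CV) of 3.36%, where counting of its fragments alone gives 2.32%. Scn9a had 9.88%, where counting alone gives 1.22%. Of the 2938 genes within 2-fold of its fragment number, 2.11% had a smaller CV than Trpv1, and their median CV was 7.31%. For Scn9a, 82.4% of 666 such genes had a smaller CV, with a median of 6.71%. Trpv1 varied least at 20% E2, with a CV of 1.71%, and most in vehicle, with 4.49%. The value at 20% E2 is below the 2.37% that counting alone gives in that group. Scn9a varied least in vehicle, with 4.99%, and most at 5% E2, with 13.5%. With 3 libraries per group these group values are descriptions, and differences among them were not tested. The limma fit raised the spread of Trpv1 toward that of other genes: with the gene's own variance alone, its interval at 5% E2 was −14.8% to −3.63% (limma adjusted p = 0.866).

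**Figure D3:**
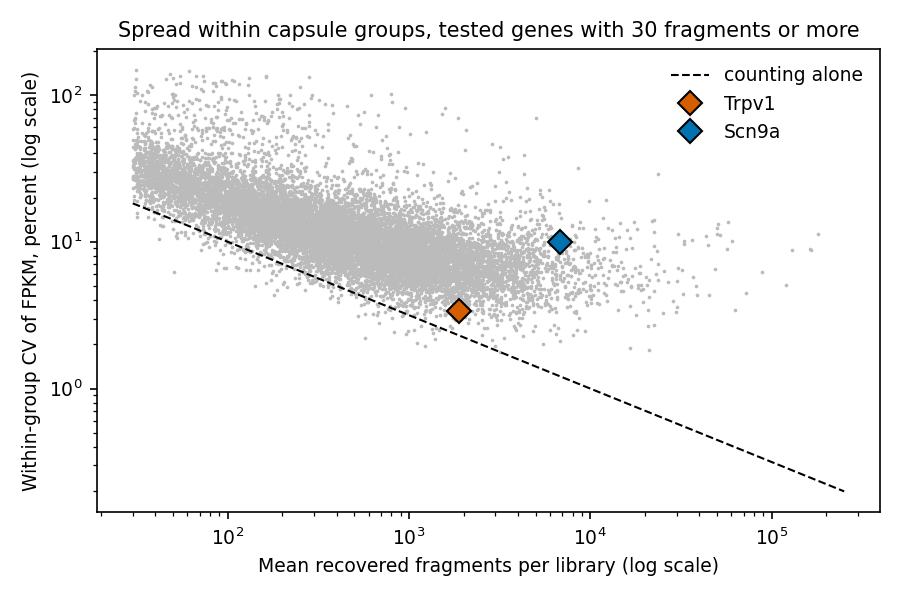
Within-group CV of FPKM in percent (vertical log axis) against mean recovered fragments per library (horizontal log axis) for the tested genes with at least 30 fragments; the dashed line is the CV that counting alone gives. Trpv1, at 3.36%, sits close to the counting line near the lower edge of the genes, and Scn9a, at 9.88%, sits above the middle of the genes with as many fragments.

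No correlation between the channels was detected. Over the 12 libraries Pearson's r of their log2(FPKM + 1) values was 0.0928 (permutation p = 0.771) and Spearman's rho 0.0769 (p = 0.816). Without the 2 libraries farthest from the median of Scn9a, 40% E2 replicate 2 and 5% E2 replicate 1, r was −0.0882 (permutation p = 0.807), and with each group centred on its mean it was −0.108 (p = 0.736). These 3 relations had Benjamini-Hochberg adjusted p of 0.807 each for Pearson's r and 1.000 each for Spearman's rho. Libraries low in Scn9a could hold the lowest Trpv1, as 5% E2 replicate 1 did with 33.4 FPKM, or a middling value, as 40% E2 replicate 2 did with 36.6 FPKM. Scn9a ranked 4111th of 9926 genes by its correlation with Trpv1.

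**Figure D4:**
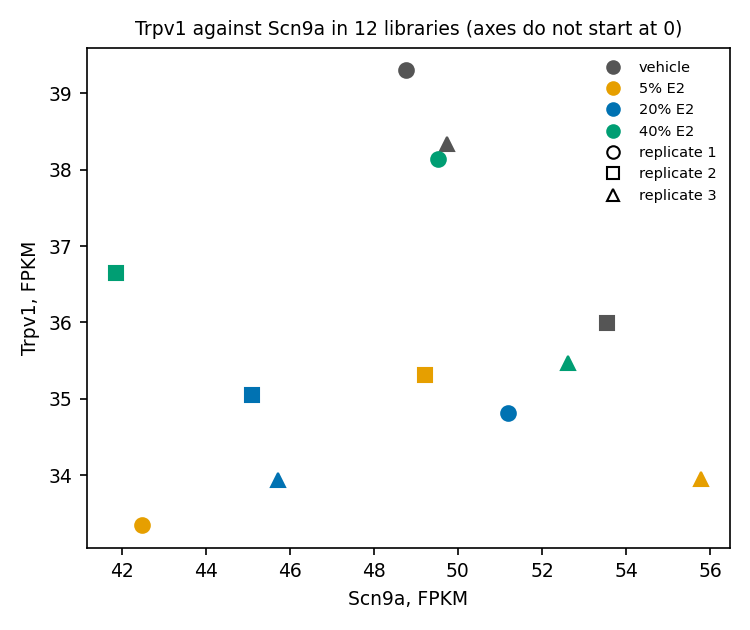
Trpv1 (vertical axis, FPKM) against Scn9a (horizontal axis, FPKM) in the 12 libraries, coloured by capsule group, with symbols for the replicate number; the axes do not start at 0. The points form no line, with r = 0.0928 over the 12 libraries.

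Per length, Trpv1 mRNA was present at 0.750 ± 0.0693 (SD, n = 3) of the Scn9a level in vehicle, 0.704 ± 0.0888 at 5% E2, 0.733 ± 0.0491 at 20% E2 and 0.773 ± 0.101 at 40% E2. The ratio ran from 0.609 in 5% E2 replicate 3 to 0.875 in 40% E2 replicate 2, and the groups overlapped in every pair. Of its squared deviation 12.9% lay between groups (exact permutation p = 0.749). Since Scn9a is the noisier gene, the ratio is less precise than Trpv1 alone. Its 95% intervals against vehicle were −23.7% to 14.9% at 5% E2, −20.2% to 20.2% at 20% E2 and −16.2% to 26.2% at 40% E2. They use only the ratio's own spread within the 4 groups, unlike the limma intervals, which also draw on other genes.

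Among the 9926 other tested genes that averaged at least 5 FPKM, those most like Trpv1 over the 12 libraries were ENSRNOG00000027125 (Pearson's r of 0.857) and ENSRNOG00000028746 (0.856), both on the log2(FPKM + 1) scale. ENSRNOG00000027125 had 10.5 ± 1.52 FPKM (SD, n = 3) in vehicle, 7.42 ± 0.984 at 5% E2, 8.04 ± 0.503 at 20% E2 and 8.87 ± 1.32 at 40% E2, the same order of group means as Trpv1. ENSRNOG00000028746 had 35.3 ± 5.66, 31.0 ± 2.17, 30.4 ± 1.90 and 33.0 ± 2.56 FPKM in the same groups. Those most like Scn9a were ENSRNOG00000011879 (r of 0.907) and ENSRNOG00000010737 (0.903). ENSRNOG00000011879 had 12.9 ± 0.994 FPKM in vehicle, 13.2 ± 1.42 at 5% E2, 12.4 ± 0.930 at 20% E2 and 12.5 ± 0.858 at 40% E2, so that it too differed among groups by less than the spread within them. These correlations are the highest of many over the same 12 libraries and are given as a description.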

How the data were processed

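RNA of 12 libraries was analysed from 1 deposited file each. Their values are FPKM, computed by the authors, per the labels of the deposited files. CASAVA, fastp, HISAT2, DESeq2 and featureCounts are the tools listed in the submitters' processing notes, with no version or role. Genome build, annotation and strand setting are not given there, so reads of overlapping genes may be counted for either gene. A table of the whole series repeats these values below a header whose doubled tabs shift its column names, and stayed unused.

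The members and lists were chosen with earlier results of these data known. The rule for named genes was the 2 members and, for each, the 2 genes of at least 5 FPKM with the highest Pearson's r. The planned lists of channels, regulators and cell type markers needed symbols: 0 of 32545 identifiers matched the 47357 RefSeq genes, so these were not analysed here.

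Fragments were recovered from the fact that FPKM times model length times a library denominator must be whole. All 21071 genes above 0 in at least 2 libraries gave whole fragments within 0.0001, and the step was tested on simulated data. Counting intervals cover counting error only. Genes with at least 1 FPKM in at least 3 libraries were fitted with limma-trend (limma 3.58.1, R 4.3.3) on log2(FPKM + 1), robust, all 12 libraries in 1 fit, with p-values adjusted by Benjamini-Hochberg over 14781 genes. Exact permutation tests used Python 3.11.15 and scipy 1.17.1, and those of the correlations drew 100000 resamples. Percent changes and intervals are on the FPKM + 1 scale. Promoter sequences are RefSeq's (GRCr8), matched by symbol for both genes. Libraries of 1 group all differed by more than counting noise (lowest chi-square of a pair, divided by its degrees of freedom, 7.26). Where the labels do not tie libraries to separate animals, p-values measure the spread between these libraries. Alternatives were another pseudocount, other filters, voom on recovered fragments, other scalings, the compared groups alone, no moderation, a replicate block and each library left out.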

Additional observations from a re-analysis of the deposited data

How the results depend on the processing

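Of 408 values of the channels in the limma fits under alternatives, 393 kept their direction and their side of the threshold and 15 changed sign, all when 1 library was left out and all with sizes up to 0.0620 on the log2 scale. The F-test values among the 408, 22 for each channel, have no sign and could only change their side of the threshold. None of the 408 values passed the threshold (lowest limma adjusted p 0.516). With 1 library left out, Scn9a ranged from −0.14 to 0.048 (log2) at 5% E2 and from −0.15 to 0.011 at 40% E2 against vehicle, from −0.15 to 0.046 for 20% against 5% E2, from −0.13 to 0.062 for 40% against 5% E2, from −0.052 to 0.11 for 40% against 20% E2 and from −0.14 to 0.0042 for the trend. Trpv1 ranged from −0.0011 to 0.039 for 20% against 5% E2 and from −0.033 to 0.041 for the trend, and its share between groups from 64.8% to 82.5%. In the exact test of the E2 libraries against vehicle, left-out libraries gave differences of −0.139 to −0.0770 for Trpv1 and −0.104 to 0.0266 for its ratio to Scn9a; leaving libraries out there, and in the count of separated pairs, was chosen after seeing the data. The correlation turned from 0.0928 to −0.0882 without the 2 libraries farthest from the median of Scn9a and to −0.108 with each group centred on its mean. The causes were not tested.

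The number of genes past the threshold was 1 for 20% E2 against vehicle, for 40% against 5% E2, for 40% against 20% E2 and for the mean of the doses against vehicle, and 0 elsewhere. For 20% E2 against vehicle it was 0 with log2(FPKM + 0.1), no filter, the filter at 5 FPKM, both voom fits, the compared groups alone, no moderation or the replicate block. For the mean of the doses it was 0 with the same settings (the compared groups alone was not run there). For 40% against 5% E2 it was 0 with no filter, voom without weights, the compared groups alone, no moderation or scaling by library totals. For 40% against 20% E2 it was 0 with no filter, no moderation or the replicate block. It was 1 for 40% E2 against vehicle with the compared groups alone, and 1 for any difference among the groups with either voom fit. With 1 library left out the counts ranged from 0 to 1 for 5% and 40% E2 against vehicle, 40% against 5% E2 and the mean of the doses, from 0 to 2 for 20% E2 against vehicle and 40% against 20% E2, and from 0 to 5 for 20% against 5% E2 and any difference. Scaling by library totals and quantile normalization were chosen after seeing the data.

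No pairing by replicate number was detected over all genes: deviations of same-numbered libraries correlated by 0.00849 on average (highest 0.0772), and 4 of 12 libraries correlated best with their own number. With the replicate block the Trpv1 difference was −0.14 at 5% E2 (limma adjusted p = 0.828) and −0.13 at 20% E2 (0.775), and no call on a channel changed. Libraries hold at least 1653 fragments of Trpv1 and 5372 of Scn9a. Over the 12 libraries counting alone gives a CV of 2.32% for Trpv1 and 1.22% for Scn9a, below their observed within-group CVs. The half-widths of the unadjusted 95% intervals, 1.09-fold for Trpv1 and 1.18-fold for Scn9a, are not the limit of the adjusted test: the difference of Trpv1 at 5% E2 was larger than its half-width and had a limma adjusted p of 0.889.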

Other observations

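Trpv1 was separated, with no overlap of libraries, in 4 of the 6 pairs of groups. As many separated pairs were found in 200 of the 14781 genes tested (1.35%), and the median gene had 0. Leaving out a library cannot lower this count, so a count of at least 4 was fixed in advance for Trpv1 in what follows. Without vehicle replicate 1 Trpv1 had 4, and 2.69% of genes had as many or more. Without vehicle replicate 2 it had 5, and 0.629% of genes had as many or more. Without vehicle replicate 3 it had 4, and 3.29% of genes had as many or more. Scn9a had 0 separated pairs. This count was chosen after the values of Trpv1 were seen, its pairs share libraries, and no test was made of it.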
